A study of Mus musculus with 11 samples.

Results

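The TNF receptor superfamily genes described here are 10 receptors that carry signals of tumour necrosis factor (TNF) and related ligands: Tnfrsf1a, Tnfrsf1b, Tnfrsf9, Tnfrsf10b, Tnfrsf12a, Tnfrsf19, Tnfrsf21, Fas, Ltbr and Cd40. They were chosen by symbol, with earlier results of these data known. Each had 1 probe set with that symbol alone, and all 10 were measured, among 19938 genes with such a probe set. Whole pancreas of wild-type C57Bl6J mice was profiled on Affymetrix arrays with 1 array per sample, after 9 hourly intraperitoneal injections of caerulein (6 arrays) or after sodium chloride (NaCl, 5 arrays). Caerulein is a secretory peptide that at high dose causes acute pancreatitis. The series text states its dose as 50 mg/kg, in a unit not checked here, and counts 6 caerulein mice, as many as the arrays, but 4 control mice where the titles name 5 control samples. The sources used here do not give age, sex or the time of tissue collection. For the controls it is not settled that each sample came from a separate mouse, so part of the spread behind the p-values may be technical. Values are the authors' log2 expression, 1 per probe set and array. Differences are signed so that positive means more in caerulein, and the test is limma with Benjamini-Hochberg adjustment over 35556 probe sets at an adjusted p under 0.05. The number of arrays limits the precision.

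Receptors of this superfamily are membrane proteins with cysteine-rich repeats outside the cell. Tnfrsf1a, Tnfrsf10b, Tnfrsf21 and Fas encode receptors with a death domain in the cytoplasm, which can recruit adaptors such as FADD and TRADD and activate caspase-8 or NF-kB. The others signal mainly through TRAF adaptors to NF-kB and MAP kinases. In the pancreas, TNF made by infiltrating leukocytes is a long-studied mediator of acinar cell injury in acute pancreatitis.

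In caerulein pancreas 7 of the 10 receptor genes were higher, 2 were lower (Tnfrsf19 and Cd40) and Tnfrsf9 did not pass (limma). Over all probe sets 16.4% were called higher and 27.8% lower, and over named genes 20.3% and 34.3%. The median difference of the 10 was 0.48, against -0.13 for all genes and -0.20 for 18 other receptors of the superfamily. Since the 10 were chosen with earlier results of these data known, these counts describe them and are not a test. Tnfrsf12a, the receptor for the cytokine TWEAK, was 6.34-fold higher and Tnfrsf1a, the main receptor for soluble TNF, 3.15-fold higher. These 2 were the members past 2-fold, a size that 6.14% of named genes reached upwards. No member fell that far, as 1.44% of named genes did. Caerulein and NaCl ranges were separate in 4 members that were higher and 2 that were lower, against 16.7% and 20.6% of named genes. In whole tissue, fewer cells of a type and less RNA per cell cannot be told apart.

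The scale of the arrays bears on these counts. Of all called probe sets 62.9% were lower as deposited, against 46.4% after cyclic loess and 95.2% when each array was shifted to an equal mean of 11 commonly used reference genes. That last shift moved the median of all probe sets from -0.11 to -0.90, and 7 of the 11 reference genes themselves were called higher as deposited. With it 2 members (Tnfrsf12a and Tnfrsf1a) were higher and 5 lower, where 5.79% of named genes were higher and 87.3% lower. Matching the 75th percentiles left 6 higher and 2 lower (18.7% and 45.9% of named genes). A second quantile normalisation gave 7 higher and 1 lower (19.3% and 23.4%), and so did cyclic loess (21.9% and 18.2%). Read against the median of all probe sets, 8 members lay above it and 2 below it (Tnfrsf19 and Cd40) as deposited, after a second quantile normalisation and after loess. The other 2 scalings shift whole arrays and by construction leave these distances as they were. For Tnfrsf12a the distance to that median was 2.45 to 2.77, and for Cd40 it was -0.31 to -0.24.

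**Figure D1:**
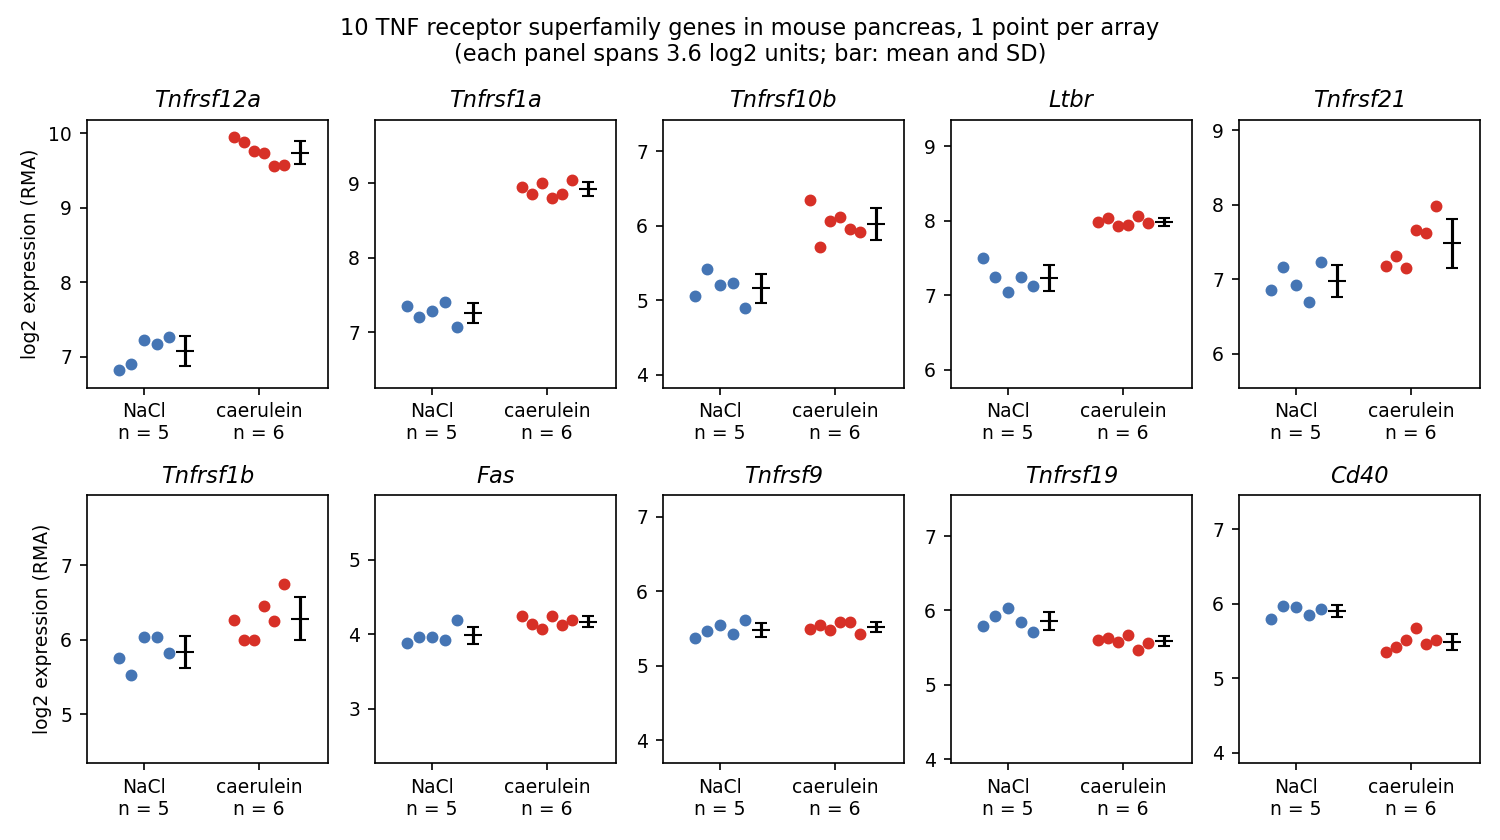
Log2 expression of the 10 receptor genes, 1 point per array in replicate order from left to right, NaCl (blue, n = 5) and caerulein (red, n = 6), with the mean and SD beside the points; panels run from the highest to the lowest difference and each spans the same number of log2 units. The groups stand apart for Tnfrsf12a, Tnfrsf1a, Tnfrsf10b, Ltbr, Tnfrsf19 and Cd40, and overlap for Tnfrsf21, Tnfrsf1b, Fas and Tnfrsf9.

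Tnfrsf1a encodes TNF receptor 1, a death-domain receptor found on most cell types. Its log2 expression on the NaCl arrays was 7.35, 7.20, 7.28, 7.41 and 7.07. On the caerulein arrays it ran from 8.80 to 9.04, with a median of 8.91. All caerulein arrays were high and the spread within each group was small, so the groups were far apart. The means were 7.26 ± 0.13 (SD, n = 5) and 8.92 ± 0.09 (SD, n = 6), a log2 difference of 1.65 (SE 0.07, limma adjusted p = 3.1e-09). The difference was 1.61 to 1.69 when each array was left out in turn, and 0.86 (limma adjusted p = 1.8e-07) with an equal mean of the reference genes.

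Tnfrsf10b encodes the mouse death receptor for the ligand TRAIL. NaCl arrays read 5.06, 5.42, 5.20, 5.23 and 4.90 in log2 expression. Caerulein arrays lay between 5.72 and 6.35, with a median of 6.00. The lowest caerulein array, replicate 2, was still above the highest NaCl array. The log2 difference was 0.86 (SE 0.12, limma adjusted p = 6.7e-05), or 1.81-fold. With an equal mean of the reference genes it was 0.07 (limma adjusted p = 0.605).

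Fas encodes the death receptor that is bound by Fas ligand. Its log2 values were 3.89, 3.96, 3.96, 3.93 and 4.19 in NaCl and 4.07 to 4.25, with a median of 4.16, in caerulein. NaCl replicate 5 lay inside the caerulein range, so the groups overlapped. The log2 difference of 0.18 (SE 0.07, limma adjusted p = 0.0430) passed narrowly. The call was lost in 9 of the 11 fits that left out 1 array, and held without NaCl replicate 5 (0.24, limma adjusted p = 0.0107) and without caerulein replicate 3. It was also lost with equal 75th percentiles, with array quality weights and with the replicate number as a block (limma adjusted p = 0.144, 0.0548 and 0.132), and the difference was -0.61 with an equal mean of the reference genes. With a second quantile normalisation it was larger (0.30, limma adjusted p = 0.00311), as with cyclic loess (0.32, limma adjusted p = 0.00215).

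Tnfrsf21 encodes death receptor 6, known from neurons and lymphocytes. The NaCl values were 6.86, 7.16, 6.93, 6.70 and 7.23 on the log2 scale. The caerulein values ran from 7.15 to 7.99 around a median of 7.46, with replicates 1, 2 and 3 at 7.18, 7.31 and 7.15 and replicates 4, 5 and 6 at 7.66, 7.62 and 7.99. The lower caerulein arrays were therefore within or just above the NaCl range and the SD of 0.33 (n = 6) was the widest of the 10 genes in caerulein. The log2 difference was 0.51 (SE 0.15, limma adjusted p = 0.0176). It did not pass after a second quantile normalisation (0.29, limma adjusted p = 0.170) or cyclic loess (0.40, limma adjusted p = 0.0620), and it was -0.28 with an equal mean of the reference genes.

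Tnfrsf12a encodes Fn14, a small receptor that is known to be induced by growth factors and injury in epithelium and that signals through TRAF adaptors. On the NaCl arrays its log2 expression was 6.82, 6.90, 7.23, 7.17 and 7.26. The caerulein arrays read 9.56 to 9.95, with a median of 9.74. Each caerulein array was more than 2 log2 units above every NaCl array. The means were 7.08 ± 0.20 (SD, n = 5) and 9.74 ± 0.16 (SD, n = 6), a log2 difference of 2.66 (SE 0.10, limma adjusted p = 9.7e-10). This difference exceeded that of 99.6% of named genes, and stayed at 2.60 to 2.71 when single arrays were left out and at 1.87 (limma adjusted p = 4.6e-08) with an equal mean of the reference genes. The gene for its ligand TWEAK, Tnfsf12, was not analysed here.

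By root mean square distance over the 11 arrays, after each gene's NaCl mean was subtracted, the 5 protein-coding genes nearest to Tnfrsf12a among 18060 were Plp2, Ywhag, Myo1c, Myh9 and F11r, at distances of 0.17 to 0.21. Their log2 differences were 2.49 to 2.62, against 2.66 for Tnfrsf12a. Plp2 encodes a membrane protein with several transmembrane segments, Ywhag a 14-3-3 adaptor, Myo1c and Myh9 myosin heavy chains of non-muscle cells, and F11r the junctional adhesion molecule A. For all 5 the caerulein arrays lay above the NaCl arrays. Because the 5 were chosen for closeness to Tnfrsf12a on these same arrays, their similar differences and separate groups follow from the choice.

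The RefSeq promoter table (build GRCm38.p6, 250 bases before to 50 bases after a start) held windows for 8 of the 10 members, 10 windows in all. The stretches before the start are shown for the 2 members that rose past 2-fold and for the window of Tnfrsf9, a member that did not pass, which is the member window with NF-kB matches and was picked after they were seen. Each is given 5′ to 3′ on the gene's strand, with matches to the searched motifs in capitals.
Tnfrsf12a (chr17:23677450-23677699, minus strand): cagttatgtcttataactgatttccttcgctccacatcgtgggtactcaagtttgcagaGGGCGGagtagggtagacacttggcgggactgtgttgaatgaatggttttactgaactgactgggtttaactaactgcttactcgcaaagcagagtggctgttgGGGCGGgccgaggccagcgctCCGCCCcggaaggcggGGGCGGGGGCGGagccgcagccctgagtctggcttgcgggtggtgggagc
Tnfrsf1a (chr6:125349473-125349722, plus strand): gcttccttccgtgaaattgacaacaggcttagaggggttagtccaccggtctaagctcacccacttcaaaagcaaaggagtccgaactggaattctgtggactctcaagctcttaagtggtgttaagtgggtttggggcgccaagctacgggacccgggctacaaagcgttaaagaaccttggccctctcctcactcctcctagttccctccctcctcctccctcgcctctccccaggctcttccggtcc
Tnfrsf9 (chr4:150927749-150927998, plus strand): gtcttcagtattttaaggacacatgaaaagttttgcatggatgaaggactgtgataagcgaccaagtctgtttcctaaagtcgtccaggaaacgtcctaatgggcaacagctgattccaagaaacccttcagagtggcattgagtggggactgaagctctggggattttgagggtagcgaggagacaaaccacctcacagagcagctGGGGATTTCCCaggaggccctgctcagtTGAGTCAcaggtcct

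Both strands were searched for AP-1 (TGANTCA, in 7.81% of 32841 windows of 300 bases), the cAMP response element (TGACGTCA, 1.79%), TEAD (CATTCC, 14.7%), the ATF4 composite element (TGATGNAA, 3.97%), NF-kB (8.46%) and, added after the Tnfrsf12a window had been seen, the GC box (GGGCGG, 35.7%). The Tnfrsf12a window held 5 GC boxes, starting 191, 87, 66, 50 and 44 bases before the start, and no match to the others. The Tnfrsf1a window held no match to any of them. Of the 8 members with a window, the 7 besides Tnfrsf1a had at least 1 GC box. This count is per member, and Tnfrsf9 and Tnfrsf19 had 2 windows each, whereas 35.7% is a share of windows. Member windows were 45.3% to 70% G and C, against a median of 52.7% over all windows. The count therefore does not show an excess of GC boxes. In the Tnfrsf9 window above there were 2 overlapping NF-kB matches, from 43 and 42 bases before the start, and an AP-1 match 15 bases before it. Fas had an AP-1 match 211 bases before its start, and Tnfrsf1b had 2 TEAD matches. A match describes letters in this window, and no match says only that they are not in it.

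Ltbr encodes the lymphotoxin beta receptor, which epithelial and stromal cells carry and which activates non-canonical NF-kB. NaCl arrays had log2 values of 7.50, 7.25, 7.05, 7.25 and 7.12. In caerulein the values were 7.93 to 8.07, with a median of 7.98. The caerulein arrays were all higher and close together, with an SD of 0.05 (n = 6) against 0.17 (n = 5) in NaCl. The log2 difference was 0.75 (SE 0.08, limma adjusted p = 6.7e-06), or 1.69-fold, and it became -0.04 (limma adjusted p = 0.656) with an equal mean of the reference genes.

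Tnfrsf1b encodes TNF receptor 2, which is best known from leukocytes and endothelium. The log2 values were 5.75, 5.53, 6.03, 6.03 and 5.82 in NaCl. Caerulein arrays ran from 5.99 to 6.75, with a median of 6.26 and the highest value in replicate 6. Replicates 2 and 3 of caerulein lay below the 2 highest NaCl arrays, so the groups overlapped. The log2 difference of 0.45 (SE 0.14, limma adjusted p = 0.0212) was lost without NaCl replicate 2 (0.37, limma adjusted p = 0.0556) and was -0.34 with an equal mean of the reference genes.

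Cd40 and Tnfrsf19 were the members that were lower. Cd40, the costimulatory receptor of B cells and macrophages, read 5.79, 5.97, 5.96, 5.85 and 5.93 in NaCl and 5.35 to 5.67, with a median of 5.48, in caerulein. No caerulein array reached the lowest NaCl array. The log2 difference of Cd40 was -0.42 (SE 0.07, limma adjusted p = 3.6e-04), and it still passed with a second quantile normalisation (-0.30) and with cyclic loess (-0.25). Tnfrsf19, or TROY, a receptor of epithelial progenitors and of the nervous system, read 5.79, 5.93, 6.03, 5.84 and 5.71 in NaCl. In caerulein it lay between 5.47 and 5.67, with a median of 5.59. Its arrays did not overlap between the groups, but the highest caerulein array was close to the lowest NaCl array. The log2 difference of -0.27 (SE 0.07, limma adjusted p = 0.00698) did not pass after a second quantile normalisation (-0.16, limma adjusted p = 0.0986) or cyclic loess (-0.11, limma adjusted p = 0.235).

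Tnfrsf9 encodes 4-1BB, a costimulatory receptor of activated T cells. The NaCl arrays showed log2 values of 5.37, 5.46, 5.54, 5.42 and 5.61, and the caerulein arrays 5.43 to 5.59, with a median of 5.52. The caerulein range lay inside the NaCl range. The log2 difference was 0.04, with a 95% interval of -0.10 to 0.17 (limma adjusted p = 0.634). It passed as higher with a second quantile normalisation (0.18, limma adjusted p = 0.0297) and with cyclic loess (0.23, limma adjusted p = 0.00790), and was -0.75 (limma adjusted p = 2.9e-06) with an equal mean of the reference genes.

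**Figure D2:**
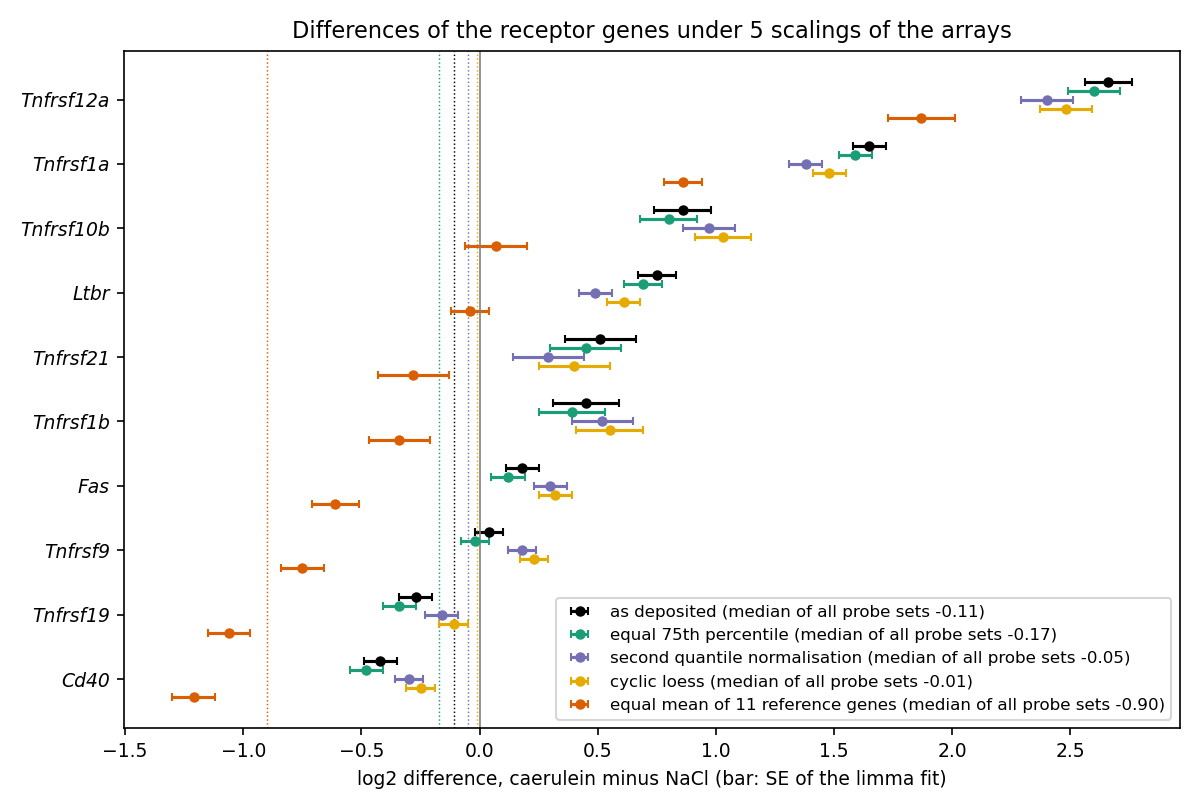
Log2 difference, caerulein minus NaCl, of each receptor gene as deposited and under 4 rescalings of the arrays, with the SE of the limma fit as bars; dotted lines mark the median difference of all probe sets under each scaling. Tnfrsf12a and Tnfrsf1a lie right of 0 throughout, while Ltbr, Tnfrsf21, Tnfrsf1b, Fas and Tnfrsf9 cross 0 with an equal mean of the reference genes, where the median is -0.90.

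Whether receptors changed by different amounts was tested for the 45 pairs of members, by taking the log2 difference between the 2 genes on each array and permuting the arrays (exact two-sided permutation test, 462 regroupings, Benjamini-Hochberg over the pairs). A shift of a whole array cancels in this difference. The changes differed in 36 of the 45 pairs, and in 31 of them p was 0.00216, the smallest the test can give (adjusted p = 0.00314). Tnfrsf12a rose more than each of the 9 others, by 1.01 (SE 0.14) over Tnfrsf1a up to 3.08 (SE 0.12) over Cd40. Tnfrsf1a rose more than each of the remaining 8, by 0.80 (SE 0.12) over Tnfrsf10b and by 1.20 (SE 0.15) over Tnfrsf1b, the other TNF receptor. The 9 pairs without a detected difference included Tnfrsf10b and Ltbr (0.11, SE 0.15, adjusted exact permutation p = 0.498), Tnfrsf1b and Tnfrsf21 (-0.06, SE 0.18, adjusted exact permutation p = 0.727), and Tnfrsf19 and Cd40 (0.14, SE 0.07, adjusted exact permutation p = 0.0632). The other 6 were pairs among Tnfrsf10b, Ltbr, Tnfrsf21, Tnfrsf1b and Fas. A missed threshold does not show that 2 genes changed alike.

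**Figure D3:**
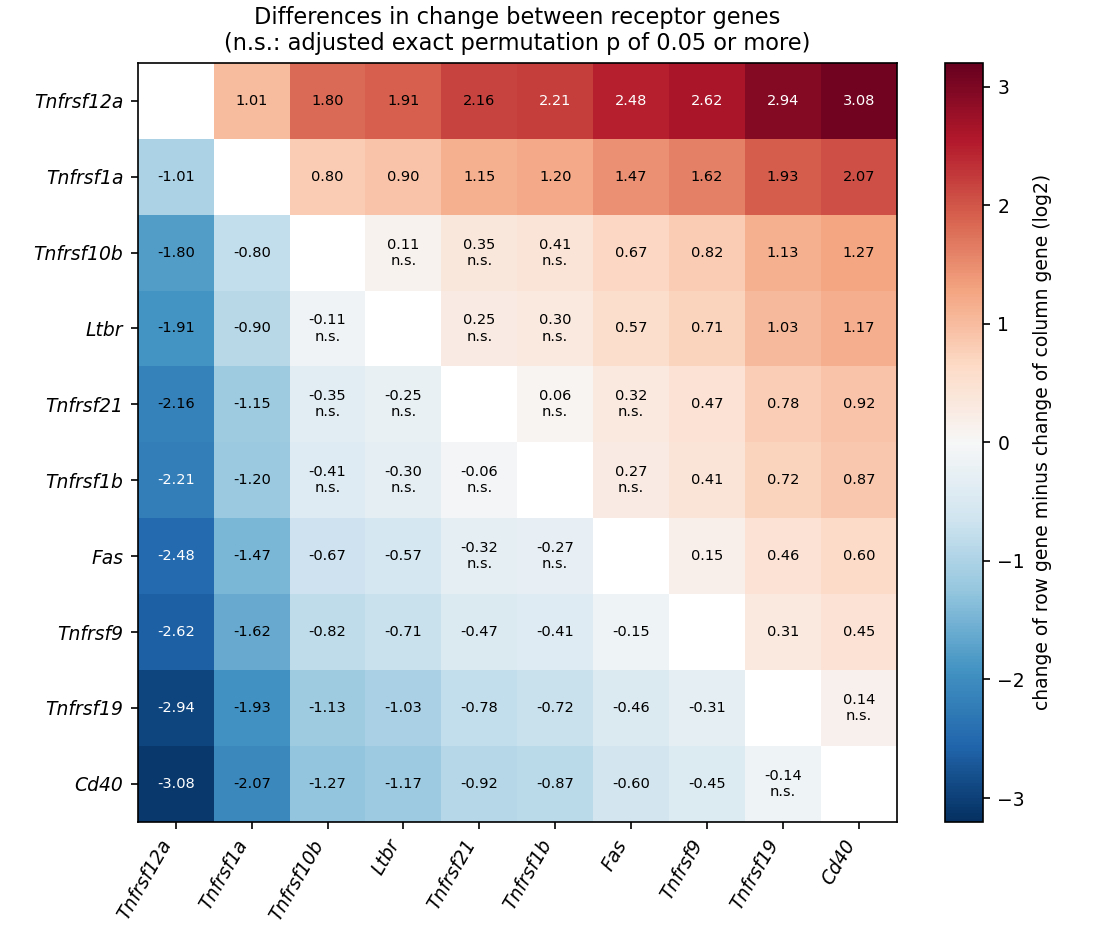
Difference in log2 change between each pair of receptor genes, row gene minus column gene, over 6 caerulein and 5 NaCl arrays; n.s. marks the 9 pairs that did not pass the adjusted exact permutation test. The rows of Tnfrsf12a and Tnfrsf1a differ from every other gene, and 8 of the 9 marked pairs lie among Tnfrsf10b, Ltbr, Tnfrsf21, Tnfrsf1b and Fas.

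Markers of other cells moved beside some of the receptors. The mean log2 level of 8 pan-leukocyte markers was 5.88 to 6.14 in NaCl and 6.11 to 6.95 in caerulein. Of the 8, 5 were called higher and 0 lower, against 20.3% and 34.3% of named genes. Without NaCl replicate 2 or 5, or caerulein replicate 1, 4 or 6, 3 of the 8 were higher, and with an equal mean of the reference genes 1 was higher and 5 lower. Cd53, a tetraspanin of leukocytes, and Laptm5, a lysosomal protein of blood cells, led them with log2 differences of 2.16 and 0.60 (limma adjusted p = 2.0e-06 and 0.00198), the second of which was -0.19 with an equal mean of the reference genes. Over caerulein replicates 1 to 6 this marker mean read 6.64, 6.21, 6.11, 6.74, 6.50 and 6.95, while Tnfrsf1b read 6.26, 5.99, 5.99, 6.45, 6.25 and 6.75. The caerulein arrays had the same order for both. The NaCl arrays did not: over replicates 1 to 5 the marker mean read 6.02, 6.00, 5.88, 6.14 and 5.88, and Tnfrsf1b 5.75, 5.53, 6.03, 6.03 and 5.82. In a comparison chosen after these values were seen, Pearson's r over the 6 caerulein arrays was 0.96 (exact permutation p = 0.00139, adjusted p = 0.0139 over 10 members) and Spearman's rho 1.00 (exact permutation p = 0.00278, adjusted p = 0.0278). Without the 2 arrays farthest from the median of the marker mean, r was 0.97 (n = 4). None of the other 9 members passed after adjustment, with r = 0.78 for Tnfrsf21 (exact permutation p = 0.0764, adjusted p = 0.278), 0.78 for Fas (exact permutation p = 0.0833, adjusted p = 0.278), 0.12 for Tnfrsf1a (exact permutation p = 0.800, adjusted p = 0.889) and -0.40 for Tnfrsf12a (exact permutation p = 0.422, adjusted p = 0.889). The part of leukocyte content in these differences was not tested.

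**Figure D4:**
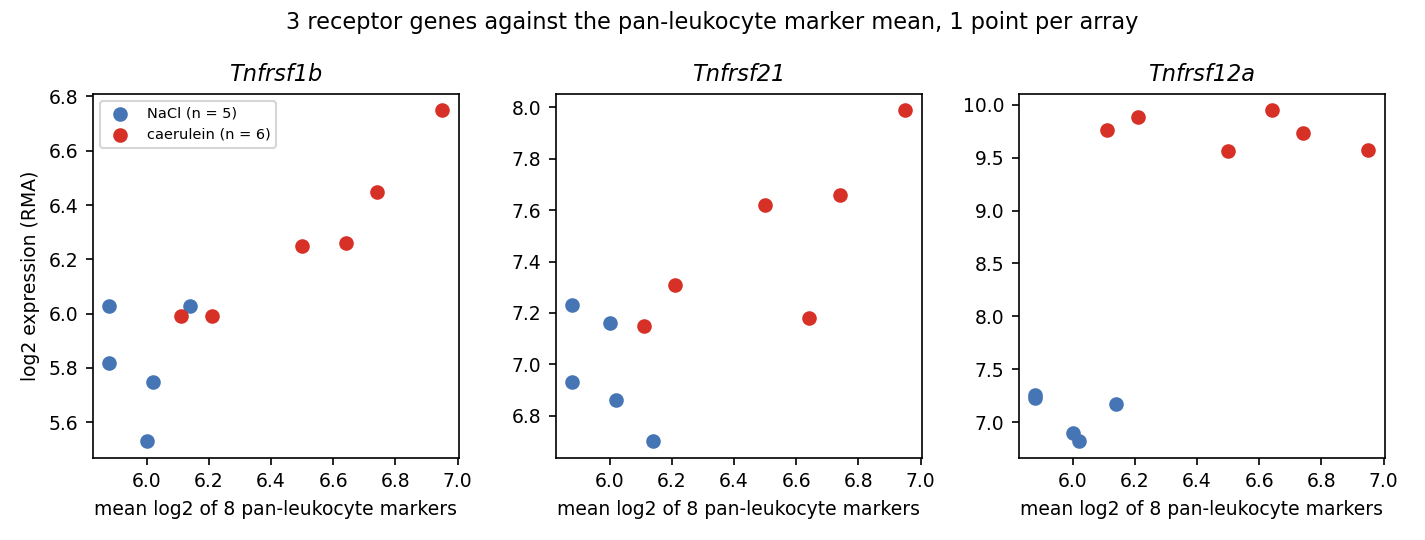
Log2 expression of Tnfrsf1b, Tnfrsf21 and Tnfrsf12a against the mean log2 level of 8 pan-leukocyte markers, 1 point per array, NaCl in blue (n = 5) and caerulein in red (n = 6). The caerulein points of Tnfrsf1b follow the marker mean from 5.99 to 6.75, and those of Tnfrsf12a stay between 9.56 and 9.95 over the whole range of the markers.

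Other marker lists give the cell background, read against 20.3% of named genes higher and 34.3% lower. Macrophage markers had 9 of 14 genes higher and 1 lower (0 or 1 lower in the fits that left out 1 array), led by the endotoxin co-receptor Cd14 (2.31) and the lysozyme gene Lyz2 (2.01), and their mean log2 level was 5.20 to 5.36 in NaCl and 5.80 to 6.48 in caerulein. T and NK cell markers had 9 of 12 lower and 0 higher. Of 8 duct markers 5 were higher and 2 lower. The claudin gene Cldn4 was at 5.76 and the keratin gene Krt19 at 4.39, and the 2 lower were Muc1 at -1.14 and Onecut1 at -0.66. Of 11 acinar markers 4 were lower, near the share of all named genes, and 1 higher (Ptf1a at 0.55). The lower ones were the cholecystokinin receptor gene Cckar at -4.05, Rbpjl at -1.43, Nr5a2 at -0.83 and Bhlha15. Bhlha15 read 9.37 to 10.15 in NaCl and 7.53 to 7.80 in caerulein. The 6 not past the threshold were enzyme genes with group means of 14.17 to 14.64, below a highest array value of 15.05. Whether changes can be seen at that level was not tested. In 7 of the 11 every caerulein array lay below every NaCl array, against 20.6% of named genes. The number of acinar markers lower was 8 with a trended and robust prior and 8 with matched 75th percentiles. The mean log2 level of the acinar list was 11.93 to 12.13 in NaCl and 11.19 to 11.33 in caerulein, high in every array. B cell markers had 3 of 9 lower and mast cell markers 4 of 10, with 0 higher, also near that share. The mast cell count was 2 without NaCl replicate 5. Of 11 islet markers 6 were lower, and 3 without NaCl replicate 4 or caerulein replicate 6. Neutrophil markers had 2 of 14 higher, with Clec4d at 1.48, and 3 lower. The number of neutrophil markers higher was 1 without NaCl replicate 2, 3 or 4 or caerulein replicate 4 or 6, and 4 without caerulein replicate 5. Endothelial markers had 2 of 11 higher and 2 lower, with 1 lower without NaCl replicate 2 or 3 or caerulein replicate 1, 3, 4 or 6. Fibroblast and stellate markers had 4 of 11 higher and 1 lower, with 2 lower without NaCl replicate 5 or caerulein replicate 2 or 6. After cyclic loess 1 T and NK cell marker, 0 B cell markers, 0 mast cell markers and 3 islet markers were lower, while 3 neutrophil markers were higher and 0 lower. With an equal mean of the reference genes more markers were lower than higher in each of these lists, for example 8 lower and 5 higher among macrophage markers. The part of these cells in the receptor differences was not tested.

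Few ligands of the superfamily were higher. Of 16 measured TNF superfamily ligands, 1 was higher, 6 were lower and 9 did not pass, with a median of -0.14 against -0.13 for all genes. Over named genes 20.3% were higher and 34.3% lower, so the ligands lower were near the share of all genes. The number of ligands lower was 3 with a second quantile normalisation and 2 with cyclic loess, and all 16 were lower with an equal mean of the reference genes. Most ligands were dim. Without the dimmer 50 percent of probe sets 4 ligands remained, 1 higher and 2 lower. Among the known ligands of the 10 receptors, Tnf itself had a log2 difference of -0.14 (SE 0.14, limma adjusted p = 0.436), with NaCl arrays at 5.85 to 6.57 and caerulein arrays at 5.82 to 6.40. Lta, Tnfsf14, Tnfsf9, Fasl and Cd40lg also stayed short of the threshold as deposited, at -0.17 to -0.03. Ltb, a subunit of the ligand of Ltbr, was lower by 0.38 in mean log2 expression (SE 0.07, limma adjusted p = 0.00106). Its caerulein arrays read 5.54 to 5.88 and its NaCl arrays 6.03 to 6.28, so the groups did not overlap. Tnfsf10, which encodes TRAIL, was at -0.44 (SE 0.10, limma adjusted p = 0.00396), and at -0.30 (limma adjusted p = 0.0539) with a second quantile normalisation and -0.26 (limma adjusted p = 0.0897) after cyclic loess. Eda, which encodes ectodysplasin A, was the 1 ligand that rose, by 0.49 (SE 0.11, limma adjusted p = 0.00257), and stood at -0.30 with an equal mean of the reference genes. Tnfsf11, which encodes RANK ligand, was at -0.45 and the T cell costimulator Cd70 at -0.42 (limma adjusted p = 0.00325 and 0.00568). The B cell survival factor gene Tnfsf13b was at -0.22 (limma adjusted p = 0.0408). Tnfsf13b was not called in 7 of the 11 fits that left out 1 array. After cyclic loess Cd70 and Tnfsf13b no longer passed (limma adjusted p = 0.0626 and 0.845).

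Among 18 other receptors of the superfamily 3 were higher, 8 lower and 7 not past the threshold, against 20.3% of named genes higher and 34.3% lower. The median difference of the 18 was -0.20. The number lower was 4 without NaCl replicate 3, 5 without caerulein replicate 2, 2 with a second quantile normalisation and 0 with cyclic loess, where 4 were higher. With an equal mean of the reference genes 15 were lower and 2 higher. The 3 that were higher had groups that did not overlap. Tnfrsf23 encodes a mouse decoy receptor for TRAIL that lacks a death domain. It read 5.30 to 5.47 on the log2 scale in NaCl and 7.10 to 8.18 in caerulein, a difference of 2.30 (SE 0.18, limma adjusted p = 4.1e-07). Tnfrsf22, the neighbouring decoy receptor gene, read 5.21 to 5.81 and 6.22 to 7.12, a difference of 1.09 (SE 0.17, limma adjusted p = 1.8e-04), and 0.30 (limma adjusted p = 0.125) with an equal mean of the reference genes. For both decoy receptors caerulein replicates 1, 2 and 3 were the 3 highest arrays. The same held for the member Tnfrsf12a, at 9.95, 9.88 and 9.76 there and 9.73, 9.56 and 9.57 in caerulein replicates 4, 5 and 6. Its values in replicates 3 and 4 were close. The member Tnfrsf21 had the reverse order, with replicates 4, 5 and 6 highest. How many of all genes have either order was not counted, so no shared pattern can be read from these. Eda2r, a receptor for a form of ectodysplasin and a known p53 target, rose by 1.96 (SE 0.18, limma adjusted p = 2.3e-06). The lymphocyte receptors Tnfrsf17, Tnfrsf13b and Tnfrsf25 had differences of -0.38, -0.30 and -0.29 as deposited (limma adjusted p = 0.0175, 0.00894 and 0.00362). None of these 3 passed after cyclic loess (limma adjusted p = 0.162, 0.291 and 0.192).

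Of 30 measured genes of receptor signalling and shedding, 14 were higher and 2, Cyld and Fadd, lower, against 20.3% and 34.3% of named genes. The median difference of the 30 was 0.14. Under an equal mean of the reference genes 2 were higher and 21 lower. Map3k5, which encodes the stress kinase ASK1, was 4.84-fold higher, with a log2 difference of 2.28 (SE 0.13, limma adjusted p = 1.9e-08). Rnf31, the catalytic subunit of the linear ubiquitin ligase at the TNF receptor complex, was 2.36-fold higher, and Mlkl, the effector of necroptosis, 2.00-fold higher, the latter at 0.21 (limma adjusted p = 0.123) with an equal mean of the reference genes. Cyld, a deubiquitinase that removes linear and other chains, was 1.67-fold lower (log2 difference -0.74, SE 0.12, limma adjusted p = 2.5e-04). The death-domain adaptor Fadd was at -0.29 (limma adjusted p = 0.0384), and was not called in 7 of the 11 fits that left out 1 array. In a separate list of NF-kB subunits and inhibitors 7 of 8 genes rose and 0 fell, against the same shares of named genes. The median difference of the 8 was 0.61. There, too, an equal mean of the reference genes turned the balance, to 1 higher and 4 lower.

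**Figure D5:**
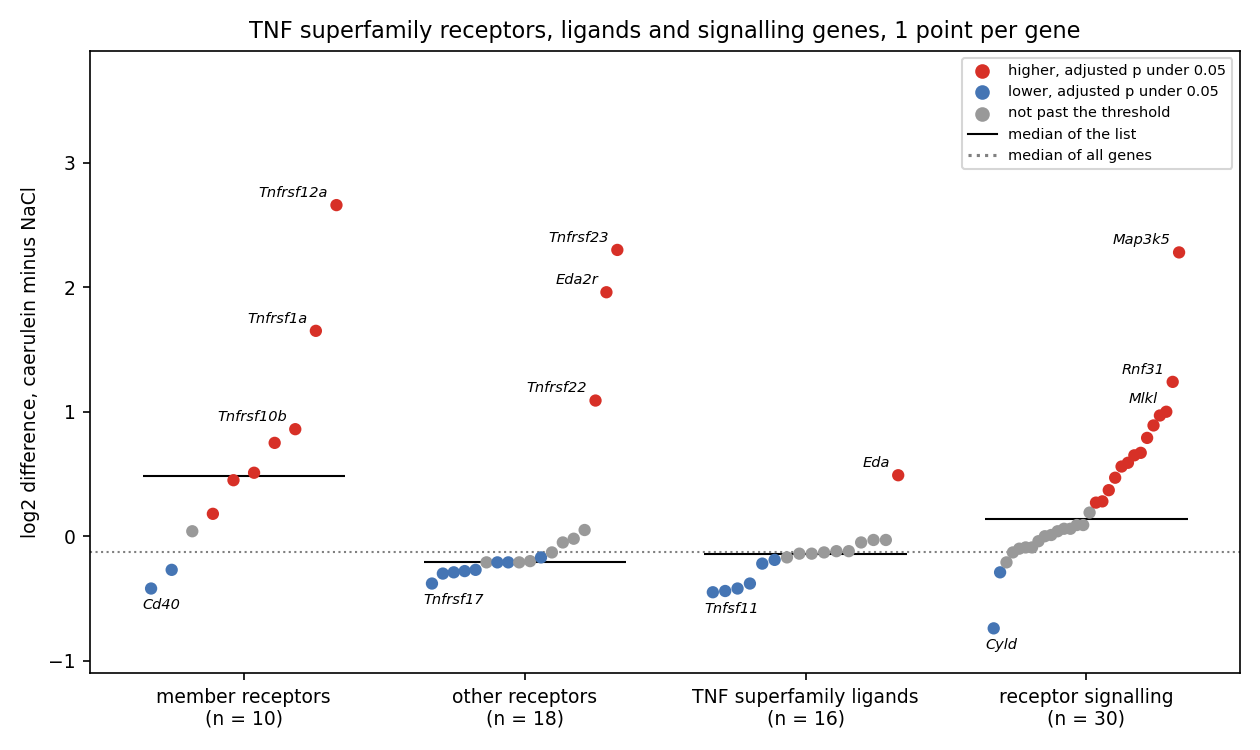
Log2 difference, caerulein minus NaCl, of each gene in 4 lists of the TNF superfamily, coloured by the call (red higher, blue lower, grey not past the threshold); black lines are list medians and the dotted line the median of all genes (-0.13). The list medians are 0.48 for the 10 member receptors and -0.20 for the 18 other receptors. They are -0.14 for the 16 ligands and 0.14 for the 30 signalling genes. In the same order the differences span -0.42 to 2.66, -0.38 to 2.30, -0.45 to 0.49 and -0.74 to 2.28.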

How the data were processed

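Total RNA from pancreas was biotin-labelled and hybridised, 1 array per sample. Per the submitters' processing notes, the authors used RMA with the R packages oligo and limma (versions and genome build not given in the sources used here) and deposited log2 values for 35556 probe sets. RMA can compress large changes. Detection calls, scan dates and batches were not analysed here, so whether dim probe sets lie above background is unknown. Symbols came from the platform annotation: 21789 probe sets carried 1 symbol, 1621 several and 12146 were unlisted. Each gene was represented by its probe set with the highest mean.

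Groups and replicate numbers came from the titles. Median log2 values were 5.35 to 5.40 in NaCl and 5.20 to 5.25 in caerulein, and arrays correlated at 0.981 to 0.991 inside a group and 0.938 to 0.955 across groups. The fit was limma 3.58.1 under R 4.3.3 (lmFit, eBayes, no covariates, 11 arrays, two-sided), tested on simulated data. Pair tests and correlations were exact permutations, the latter in Python 3.11.15. Motif letters were searched in RefSeq windows (GRCm38.p6). Alternatives were 4 rescalings, a trended robust prior, array weights, a dimness filter, the replicate number as a block, and each array left out. The members and gene lists were chosen with earlier results of these data known. Genes named beside the members were the known ligands, the 3 called genes with the largest rise and fall in each related list, the 5 nearest to Tnfrsf12a, and called markers with the largest change. The acinar markers Rbpjl, Nr5a2 and Ptf1a and the duct markers Muc1 and Onecut1 are named for context. They were not in the range test below.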

Additional observations from a re-analysis of the deposited data

Results flagged for a closer look

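Of 104 groups of arrays, for the 10 receptors and the other named genes, 4 held an array far from the rest by Dixon's range test, which chance gives in about 1 of 20 groups. Fas stood at 4.19 on NaCl replicate 5, against 3.89 to 3.96 on the other NaCl arrays. Tnfsf14 was at 4.77 on caerulein replicate 3 (others 5.13 to 5.30), Tnfsf9 at 3.98 on NaCl replicate 4 (others 4.22 to 4.27), and Myh9 at 7.38 on NaCl replicate 3 (others 7.65 to 7.74).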

How the results depend on the processing

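With an equal mean of the reference genes, 32775 probe sets were called, against 15713 as deposited, and 2 members were higher and 5 lower. The differences of Tnfrsf1b (-0.34), Tnfrsf9 (-0.75), Tnfrsf21 (-0.28), Fas (-0.61), Ltbr (-0.04), Eda (-0.30), Laptm5 (-0.19) and Mmp8 (-0.38) changed sign there, by construction of a common shift. With equal 75th percentiles Tnfrsf9 was at -0.02. After a second quantile normalisation 1 member was lower, with Lta at 0.01, Tnfsf14 at 0.03, Tnfsf9 at 0.09 and Fasl at 0.06, and after cyclic loess 1 member was lower, with Lta at 0.05, Tnfsf14 at 0.08, Tnfsf9 at 0.11 and Fasl at 0.08. With the replicate number as a block 13361 probe sets were called, 6 members were higher and 2 lower, and Tnfsf9 was at 0.01. Correlations of deviations between same-numbered arrays were -0.05 to 0.06. The best match of NaCl replicates 1 and 5 was the caerulein array of the same number, and that of replicates 2, 3 and 4 was not. So few correlations cannot settle whether the numbers pair the samples. Leaving out each array gave 14148 to 14993 called probe sets, 5 to 7 members higher, 2 lower, 35 to 36 pairs that differed, and differences of -0.08 to 0.01 for Tnfsf9. Over all alternatives, 163 of 189 member values kept their direction and side of the threshold, 18 lost the call, 2 gained it and 6 changed sign; the cause was not tested beyond the shift. Another probe set per gene could not be tried, since each member had 1, and Fas fell out with the dimmer 50 percent of probe sets.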
